A study of Mus musculus with 6 samples.

Results

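Interferon-stimulated effector genes are the genes that carry out the antiviral state: they code for proteins that bind or modify viral RNA, block viral entry and release, attack the vacuoles of intracellular pathogens, or tune the response itself. A list of 52 such genes was chosen by their names and known function, but with earlier results of these data known. These genes were followed in mouse embryonic fibroblasts (MEFs), the cultured connective tissue cells of mouse embryos. Of these, 46 had a probe set whose array annotation gave their symbol alone, among 19938 genes measured in the same way. Isg15, Gbp2, Gbp6, Igtp and Irgm2 were represented only by probe sets that carried several symbols, and Ifi44 had no entry in the annotation used, so that these 6 are not analysed here. RNA was compared between H2AX KO MEFs, which lack the histone variant H2AX that marks chromatin around DNA breaks, and H2AX WT MEFs, with 3 Affymetrix Gene ST arrays of each genotype. Both genotypes were grown in the same serum-supplemented medium and no treatment was given to either, so that no added interferon or virus is named for them. The paper describes the 3 arrays of a genotype as independent replicates, but no source used here says whether they came from separate embryos, cultures or clones. The p-values measure no more than the spread between these arrays, which may leave out the spread between embryos. Strain and passage are likewise not given.

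Type I interferons are secreted by cells that detect foreign nucleic acid. They bind the receptor pair Ifnar1 and Ifnar2 on the same or neighbouring cells, the kinases Jak1 and Tyk2 are activated at the receptor, and a complex that holds Stat2 and Irf9 binds the interferon-stimulated response element (ISRE), a repeat of the letters GAAA, near the start of its target genes. Interferon gamma acts through another receptor and the gamma-activated site (GAS). Fibroblasts make interferon beta and hold a low level of many of these transcripts without any infection.

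The deposited values are log2 expression values, so that a difference of 1 is a change of 2-fold. The transcript of the targeted gene itself, H2ax, had log2 values of 7.69, 7.77 and 7.67 on the H2AX KO arrays, against 8.96, 9.18 and 9.00 on the WT arrays. It was lower on every H2AX KO array, with a log2 fold change of -1.34 ± 0.075 (limma, adjusted p = 5.8e-07), where ± here and below is the standard error of the fit. Signal was left in H2AX KO cells, and whether the probes sit inside the deleted stretch is not given in the sources used here. The cells also differed in 3 measured Y-linked genes, all lower in H2AX KO cells, of which Eif2s3y had a log2 fold change of -4.04 (limma, adjusted p = 9.7e-10) and Uty of -3.73 (limma, adjusted p = 7.9e-10). The arrays therefore compare cell populations that differ in more than H2AX, and the loss of H2AX and these other differences cannot be told apart in these data. Among the arrays, WT replicate 1 had lower values than the other WT arrays for most of the interferon-stimulated genes, and results without it are given below.

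Most of the interferon-stimulated effector genes were lower in H2AX KO MEFs than in WT MEFs. Of the 46 measured genes, 42 (91.3%) were lower at an adjusted p under 0.05 in limma, where 15.0% of all genes were lower. By contrast, 0 were higher, where 18.4% of all genes were higher (2.12% by a fold over 2), and 0 were higher at an unadjusted p under 0.05 or in the one-way ANOVA of the methods. At the additional threshold of a fold over 2, 30 (65.2%) were lower, against 3.18% of all genes. For 43 of the 46 genes all 3 H2AX KO arrays lay below all 3 WT arrays, which was the case for 19.5% of all genes, and for 0 genes they lay above, against 25.3% of all genes. The median log2 fold change was -1.36 over the 46 genes and 0.02 over all genes. In H2AX KO MEFs, 9 of the 46 genes had a mean in the lowest 25% of all genes, against 1 in WT MEFs. The 9 were Oas1b, Mx2, Gbp5, Iigp1, Trim30a, Cmpk2, Ddx60, Samd9l and Sp100. Whether their H2AX KO values were above background is not given in the sources used here, and their folds are limited by this. In such bulk RNA, fewer cells that express a gene and less RNA per cell cannot be told apart. Without WT replicate 1, 42 genes were lower, where 14.7% of all genes were lower. Of these 42, 35 were lower by a fold over 2, and the median log2 fold change over the 46 genes was -1.49.

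**Figure D1:**
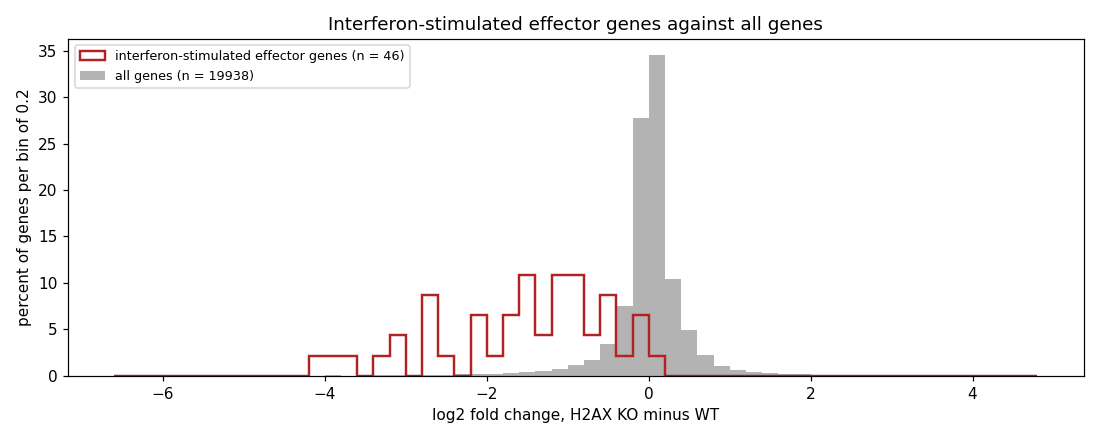
Distribution of the log2 fold change (H2AX KO minus WT, horizontal axis) as the percentage of genes in bins of 0.2 on the log2 scale (vertical axis), for the 46 interferon-stimulated effector genes (red outline) and all 19938 genes (grey). The interferon-stimulated genes have a median of -1.36 and reach down to -4.18, while all genes centre on 0.02.

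The Ifit genes, whose proteins bind foreign or incompletely capped RNA and block its translation, held some of the deepest falls as well as a gene that did not pass. Ifit1 had log2 values of 6.01, 6.00 and 5.84 on the H2AX KO arrays, against 8.93, 9.29 and 9.16 on the WT arrays. These groups lay far apart, and the log2 fold change was -3.17 ± 0.096 (limma, adjusted p = 9.0e-09), a 9.03-fold difference. Ifit3, whose human counterpart forms a complex with IFIT1, had values of 6.86, 6.33 and 6.42 on the H2AX KO arrays, against 10.02, 10.45 and 10.26 on the WT arrays. Its H2AX KO arrays were all below its WT arrays as well, with a log2 fold change of -3.70 ± 0.14 (limma, adjusted p = 4.5e-08), a 13.0-fold difference. Ifit2, a neighbour on the same chromosome that protects mice from viral infection of the brain, had values of 8.72, 8.61 and 8.68 on the H2AX KO arrays, against 8.30, 8.76 and 8.70 on the WT arrays. Its groups overlapped, and the log2 fold change was 0.08 with a 95% confidence interval of -0.17 to 0.34 (limma, adjusted p = 0.645).

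Ifit2, Ifit3 and Ifit1 lie in this order on chromosome 19, with Ifit2 next to Ifit3. The log2 fold change of Ifit3 minus that of Ifit2 was -3.79, and that of Ifit1 minus that of Ifit2 was -3.26. Both pairs were among 4 pairs of genes of the same cluster chosen after their values were seen. In an exact permutation test of the genotype labels, two-sided, each gave p = 0.1 (0.1 after adjustment over the 4). This is the smallest p that 3 arrays against 3 allow, so that the test could not pass and cannot decide whether the genes of a pair differed. Because the cluster holds genes with and without a called fall, the stretch of bases before each start site is shown here, from RefSeq on build GRCm38.p6, 5′ to 3′ on the strand of the gene and ending at the base before the start site. Capitals mark each match to the ISRE repeat, which was searched as 2 GAAA units with 2 bases of any kind between them, or as its reverse complement, 2 TTTC units spaced alike. For Ifit1 (chr19:34640709-34640888, plus strand) and Ifit3 (chr19:34583349-34583528, plus strand) there were 2 matches each in 180 bases. For Ifit2 there was no match in 180 bases before either of its annotated start sites, of which the first is shown (chr19:34550514-34550693, plus strand).
Ifit1: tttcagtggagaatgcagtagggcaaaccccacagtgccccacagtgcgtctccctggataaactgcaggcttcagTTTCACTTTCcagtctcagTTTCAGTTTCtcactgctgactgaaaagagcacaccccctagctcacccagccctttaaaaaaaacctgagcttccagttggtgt
Ifit3: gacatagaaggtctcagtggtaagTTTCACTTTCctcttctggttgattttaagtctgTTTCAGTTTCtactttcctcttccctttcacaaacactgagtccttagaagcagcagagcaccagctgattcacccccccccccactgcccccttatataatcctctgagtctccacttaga
Ifit2: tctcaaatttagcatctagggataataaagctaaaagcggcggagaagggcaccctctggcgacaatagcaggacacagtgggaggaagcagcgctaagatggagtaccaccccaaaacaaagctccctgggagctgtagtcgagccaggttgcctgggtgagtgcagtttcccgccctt

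All 6 measured genes of the oligoadenylate synthetase family fell in H2AX KO MEFs, 3 of them by a fold over 2, with a median log2 fold change of -0.80. These enzymes sense double-stranded RNA and make the oligoadenylates that activate RNase L. Oasl2, an active synthetase of the mouse, had log2 values of 6.13, 5.97 and 6.18 on the H2AX KO arrays, against 8.43, 9.09 and 8.92 on the WT arrays. It had the widest separation of the family, with a log2 fold change of -2.72 ± 0.15 (limma, adjusted p = 4.5e-07). Oas1b, whose full-length form gives mice resistance to flaviviruses, had values of 4.68, 4.68 and 4.70 on the H2AX KO arrays, against 5.74, 6.36 and 6.49 on the WT arrays. The H2AX KO arrays were nearly equal and all lower, with a log2 fold change of -1.51 ± 0.16 (limma, adjusted p = 6.2e-05). Their mean was low, ranked at 18.1% of all genes from the bottom. Oas2 had values of 5.79, 5.84 and 5.77 on the H2AX KO arrays, against 6.58, 7.12 and 6.75 on the WT arrays. Its groups did not overlap, and its log2 fold change of -1.01 ± 0.12 (limma, adjusted p = 1.1e-04) lay close to the threshold of 2-fold, which it missed with quantile normalization (-0.98), with median centring (-0.98), without H2AX KO replicate 3 (-0.9998) and without WT replicate 2 (-0.87). Smaller falls were measured for Oasl1, which lacks synthetase activity, at -0.58 (limma, adjusted p = 2.9e-04), and for Oas3 at -0.56 (limma, adjusted p = 1.8e-04). Oas1a had a log2 fold change of -0.49 (limma, adjusted p = 0.016), and this call was lost without H2AX KO replicate 1 (adjusted p = 0.051), without H2AX KO replicate 3 (adjusted p = 0.066), without WT replicate 2 (adjusted p = 0.076) and in the one-way ANOVA (adjusted p = 0.144).

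Of the 8 measured interferon-induced GTPases, 7 fell and 6 fell by a fold over 2, with a median log2 fold change of -1.56. Guanylate-binding proteins (Gbp) and immunity-related GTPases (Irgm1, Iigp1) act on the vacuoles of intracellular parasites and bacteria. Gbp4 had log2 values of 5.49, 5.39 and 5.39 on the H2AX KO arrays, against 7.36, 7.92 and 7.50 on the WT arrays. It was lower on every H2AX KO array, with a log2 fold change of -2.17 ± 0.12 (limma, adjusted p = 6.8e-07), a 4.51-fold difference. Irgm1, a regulator of the other immunity-related GTPases, had values of 7.51, 7.10 and 7.34 on the H2AX KO arrays, against 9.10, 9.57 and 9.54 on the WT arrays. These did not overlap either, and the log2 fold change was -2.09 ± 0.14 (limma, adjusted p = 1.8e-06). Iigp1, an effector that coats the Toxoplasma vacuole, had values of 4.49, 4.33 and 4.46 on the H2AX KO arrays, against 5.80, 6.39 and 5.70 on the WT arrays. Its WT replicate 2 stood above the other WT arrays, and all H2AX KO arrays were lower, with a log2 fold change of -1.53 ± 0.16 (limma, adjusted p = 4.2e-05).

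Gbp5, Gbp7 and Gbp3 follow each other on chromosome 3, where Gbp7 and Gbp3 fell and Gbp5 did not pass. Gbp7 had log2 values of 5.64, 5.72 and 5.41 on the H2AX KO arrays, against 6.87, 7.51 and 7.33 on the WT arrays. All its H2AX KO arrays were lower, with a log2 fold change of -1.65 ± 0.15 (limma, adjusted p = 1.8e-05). Gbp3 had values of 5.09, 5.27 and 5.05 on the H2AX KO arrays, against 6.20, 6.92 and 6.20 on the WT arrays. It too was lower on every H2AX KO array, with a log2 fold change of -1.30 ± 0.17 (limma, adjusted p = 2.6e-04). Gbp5, which promotes inflammasome assembly, had values of 4.27, 4.25 and 4.35 on the H2AX KO arrays, against 4.31, 4.37 and 4.21 on the WT arrays. Its groups overlapped, with a log2 fold change of -0.0052 and a 95% confidence interval of -0.16 to 0.14 (limma, adjusted p = 0.968). Whether the Gbp5 probe set read above background is not given in the sources used here. How far the probes separate the closely related Gbp genes, or the copies within the Ifit, Oas and Ifitm families, is likewise not given.

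The Mx GTPases form rings around viral nucleoproteins and are defective in many inbred mouse strains. Mx2 had log2 values of 4.17, 4.25 and 4.30 on the H2AX KO arrays, against 5.57, 5.93 and 5.98 on the WT arrays. The H2AX KO arrays were all lower, with a log2 fold change of -1.59 ± 0.10 (limma, adjusted p = 1.7e-06), a 3.00-fold difference. The H2AX KO mean of Mx2 was low, ranked at 7.6% of all genes from the bottom. Mx1, the nuclear protein that restricts influenza virus, fell by 0.32 on the log2 scale (limma, adjusted p = 0.013), a call that was lost without WT replicate 2 (adjusted p = 0.054) and in the one-way ANOVA (adjusted p = 0.081). Mx1, Mx2 and Oas1b are annotated as transcribed pseudogenes in the RefSeq table of the reference strain.

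All 6 measured genes of ubiquitin and ubiquitin-like modification fell, 5 of them by a fold over 2, with a median log2 fold change of -1.71. Usp18, which removes the ubiquitin-like modifier Isg15 from proteins and dampens signalling at the type I interferon receptor, had log2 values of 5.14, 5.47 and 5.25 on the H2AX KO arrays, against 8.56, 9.58 and 9.39 on the WT arrays. The groups lay far apart although WT replicate 1 stood below the other WT arrays, and the log2 fold change was -3.89 ± 0.22 (limma, adjusted p = 6.4e-07), a 14.8-fold difference. Trim30a, an inhibitor of NF-kB signalling, had values of 4.77, 4.93 and 4.85 on the H2AX KO arrays, against 7.68, 8.33 and 8.21 on the WT arrays. It was lower on every H2AX KO array, with a log2 fold change of -3.22 ± 0.15 (limma, adjusted p = 1.2e-07), a 9.32-fold difference. Herc6, the main ligase for Isg15 in mice, had values of 5.06, 5.03 and 5.18 on the H2AX KO arrays, against 6.90, 7.23 and 7.13 on the WT arrays. Replicates of each genotype were close together, and the log2 fold change was -1.99 ± 0.091 (limma, adjusted p = 1.3e-07). Trim21, a receptor for antibody-coated virus in the cytosol, had values of 5.62, 5.81 and 5.49 on the H2AX KO arrays, against 6.67, 7.30 and 7.23 on the WT arrays. It did not overlap between genotypes and had a log2 fold change of -1.43 ± 0.16 (limma, adjusted p = 6.7e-05). Trim25, a ubiquitin ligase of the RNA sensor RIG-I, had a log2 fold change of -0.99 (limma, adjusted p = 2.0e-04), just under 2-fold.

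The ADP-ribosyltransferases Parp9, Parp12 and Parp14 fell together, each by a fold over 2, with a median log2 fold change of -1.42. Parp12, which modifies proteins at stress granules, had log2 values of 8.20, 8.06 and 8.02 on the H2AX KO arrays, against 9.58, 9.96 and 9.72 on the WT arrays. All H2AX KO arrays were lower, with a log2 fold change of -1.66 ± 0.10 (limma, adjusted p = 9.2e-07), a 3.17-fold difference. Parp14, Dtx3l and Parp9 are consecutive genes on chromosome 16. Parp14 had values of 5.90, 5.69 and 5.60 on the H2AX KO arrays, against 6.86, 7.36 and 7.22 on the WT arrays. Its groups were apart on every array, with a log2 fold change of -1.42 ± 0.13 (limma, adjusted p = 1.6e-05). Parp9 had values of 6.24, 6.26 and 6.39 on the H2AX KO arrays, against 7.16, 7.63 and 7.52 on the WT arrays. Again no H2AX KO array reached a WT array, and the log2 fold change was -1.14 ± 0.11 (limma, adjusted p = 3.4e-05). Dtx3l, the ubiquitin ligase that pairs with Parp9, had values of 6.66, 6.68 and 6.76 on the H2AX KO arrays, against 7.62, 8.01 and 7.94 on the WT arrays. Its log2 fold change of -1.15 ± 0.099 (limma, adjusted p = 1.3e-05) was close to that of its partner, and its groups did not overlap.

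Of the 8 genes that act on nucleic acids and nucleotides, 7 fell, and 2 of these fell by a fold over 2, with a median log2 fold change of -0.92. Samd9l, a cytosolic restriction factor for poxviruses, had log2 values of 4.79, 4.38 and 4.63 on the H2AX KO arrays, against 6.66, 7.38 and 7.14 on the WT arrays. It had the largest fall of the class, with no overlap and a log2 fold change of -2.46 ± 0.17 (limma, adjusted p = 2.6e-06), a 5.49-fold difference. Rsad2 (viperin), which turns CTP into a chain terminator of viral RNA synthesis, had values of 5.62, 5.56 and 5.61 on the H2AX KO arrays, against 6.31, 6.66 and 6.84 on the WT arrays. All H2AX KO arrays were lower, with a log2 fold change of -1.01 ± 0.12 (limma, adjusted p = 1.0e-04), a 2.01-fold difference. It missed 2-fold with quantile normalization (-0.98), with median centring (-0.97) and without H2AX KO replicate 2 (-0.99), WT replicate 2 (-0.98) or WT replicate 3 (-0.89). The adjacent gene Cmpk2, a mitochondrial nucleotide kinase, had a log2 fold change of -0.97 (limma, adjusted p = 7.2e-05), and the helicase Ddx60 of -0.95 (limma, adjusted p = 3.0e-04). Zbp1, a sensor of Z-form nucleic acid that starts necroptosis, had a log2 fold change of -0.90 (limma, adjusted p = 3.6e-04). Eif2ak2, the kinase PKR that halts translation on double-stranded RNA, fell by 0.75 on the log2 scale (limma, adjusted p = 0.0017), a call that was lost in the one-way ANOVA (adjusted p = 0.061). Adar, which edits adenosine to inosine in double-stranded RNA, had a log2 fold change of -0.53 (limma, adjusted p = 0.0014). Isg20, an RNA exonuclease, had values of 8.70, 8.59 and 8.81 on the H2AX KO arrays, against 8.78, 8.89 and 8.61 on the WT arrays. These overlapped, and the log2 fold change was -0.06 with a 95% confidence interval of -0.26 to 0.14 (limma, adjusted p = 0.676).

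The 4 measured genes for membrane and secreted proteins all fell, 3 of them by a fold over 2, with a median log2 fold change of -2.14. Ifitm1, which blocks fusion of viruses with the cell membrane, had log2 values of 6.51, 6.77 and 6.55 on the H2AX KO arrays, against 11.03, 10.67 and 10.67 on the WT arrays. This was the largest fall of the 46 genes, -4.18 ± 0.11 (limma, adjusted p = 3.9e-09), or 18.1-fold. Unlike most of the genes, WT replicate 1 was its highest WT array. A second probe set of Ifitm1 had a log2 fold change of -3.99. Ifitm3, the neighbouring gene whose protein blocks fusion in endosomes, had values of 11.04, 11.35 and 11.00 on the H2AX KO arrays, against 12.83, 12.71 and 12.71 on the WT arrays. Every H2AX KO array lay below every WT array, with a log2 fold change of -1.62 ± 0.095 (limma, adjusted p = 7.8e-07). Lgals3bp, a secreted glycoprotein that binds galectins, had values of 7.32, 7.15 and 7.44 on the H2AX KO arrays, against 9.59, 10.22 and 10.08 on the WT arrays. It did not overlap between genotypes, with a log2 fold change of -2.66 ± 0.15 (limma, adjusted p = 5.3e-07), a 6.33-fold difference. Bst2 (tetherin), which holds budding virus at the cell surface, had a log2 fold change of -0.99 (limma, adjusted p = 4.2e-04), just under 2-fold.

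Both measured genes of the nuclear bodies fell. Sp100, a body component that restricts viral genomes in the nucleus, had log2 values of 4.71, 4.69 and 4.72 on the H2AX KO arrays, against 7.25, 7.63 and 7.47 on the WT arrays. The H2AX KO arrays were nearly identical and far below the WT arrays, with a log2 fold change of -2.75 ± 0.092 (limma, adjusted p = 1.7e-08), a 6.71-fold difference. The H2AX KO mean of Sp100 was low, ranked at 18.7% of all genes from the bottom, so that values near background could also lie this close together. Pml, the scaffold of these bodies, had a log2 fold change of -0.71 (limma, adjusted p = 5.8e-05).

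Among the 6 remaining measured genes, 5 fell, each by a fold over 2, with a median log2 fold change over the 6 of -1.66. Rtp4, a chaperone of receptors on their way to the cell surface, had log2 values of 6.15, 5.82 and 5.98 on the H2AX KO arrays, against 8.74, 9.23 and 9.05 on the WT arrays. There was no overlap, and the log2 fold change was -3.02 ± 0.12 (limma, adjusted p = 6.8e-08), an 8.12-fold difference. Ifi27, a small hydrophobic membrane protein, had values of 7.17, 6.92 and 7.01 on the H2AX KO arrays, against 9.64, 9.74 and 9.83 on the WT arrays. Its replicates were close in both genotypes, with a log2 fold change of -2.70 ± 0.082 (limma, adjusted p = 9.5e-09). Xaf1, which binds the apoptosis inhibitor XIAP, had values of 6.04, 6.00 and 6.12 on the H2AX KO arrays, against 8.00, 8.21 and 8.16 on the WT arrays. All H2AX KO arrays were lower, with a log2 fold change of -2.07 ± 0.074 (limma, adjusted p = 2.7e-08). Tor3a, an ATPase of the endoplasmic reticulum, had values of 7.55, 7.38 and 7.32 on the H2AX KO arrays, against 8.27, 8.85 and 8.83 on the WT arrays. Its WT replicate 1 was lower than the other WT arrays but above every H2AX KO array, and the log2 fold change was -1.24 ± 0.14 (limma, adjusted p = 1.1e-04). Ifi35, a partner of the interferon-induced protein Nmi, had values of 6.53, 6.50 and 6.60 on the H2AX KO arrays, against 7.43, 8.02 and 7.72 on the WT arrays. It also separated the genotypes, with a log2 fold change of -1.18 ± 0.13 (limma, adjusted p = 6.2e-05). Epsti1 had values of 5.12, 5.04 and 5.08 on the H2AX KO arrays, against 5.13, 5.24 and 5.33 on the WT arrays. Every H2AX KO array was below every WT array by a narrow margin, and the log2 fold change of -0.15, with a 95% confidence interval of -0.31 to 0.01, did not pass (limma, adjusted p = 0.139).

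**Figure D2:**
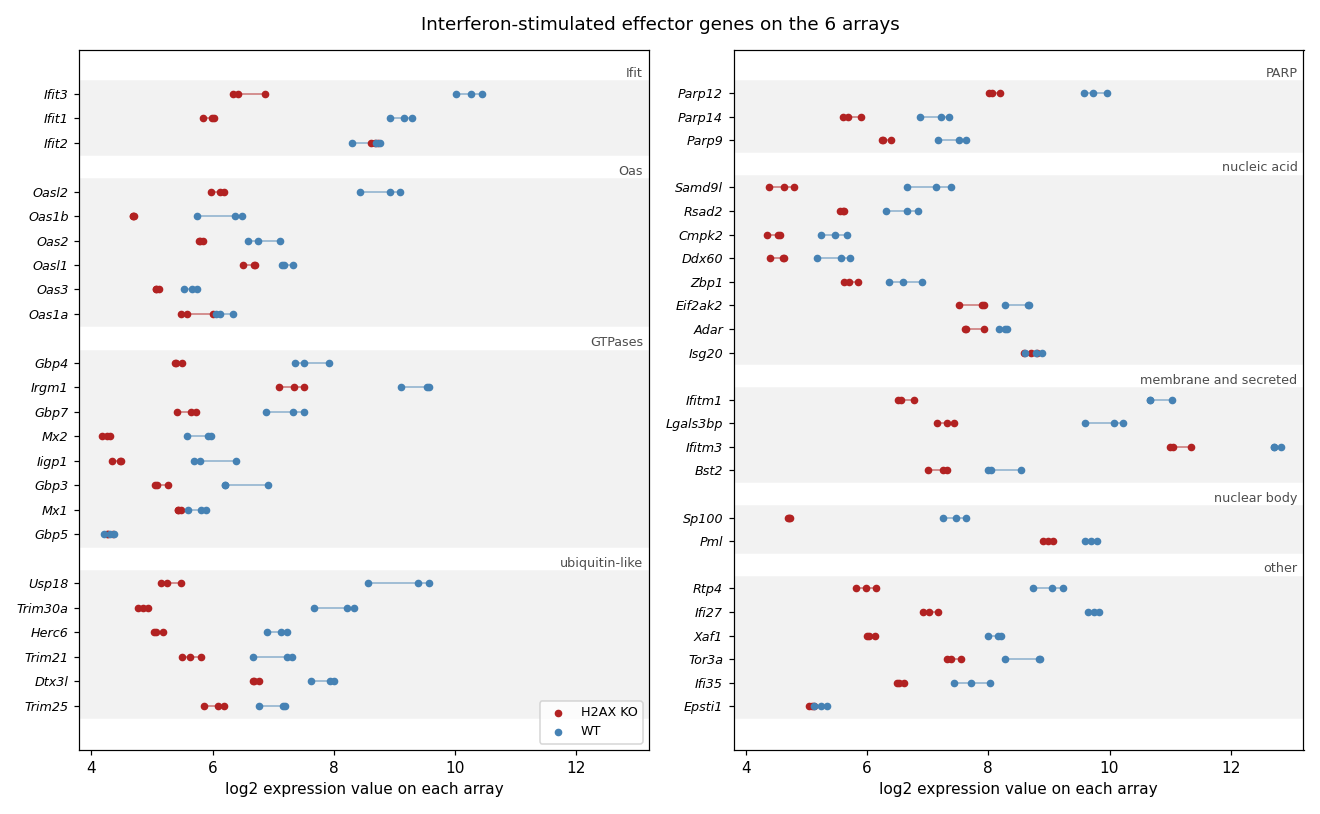
Log2 expression value (horizontal axis) of each of the 46 measured genes, by class, on each of the 3 H2AX KO arrays (red points) and 3 WT arrays (blue points), with a line over the range of each genotype. The red points lie below the blue points without overlap for 43 genes, and the groups overlap for Ifit2, Gbp5 and Isg20.

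**Figure D3:**
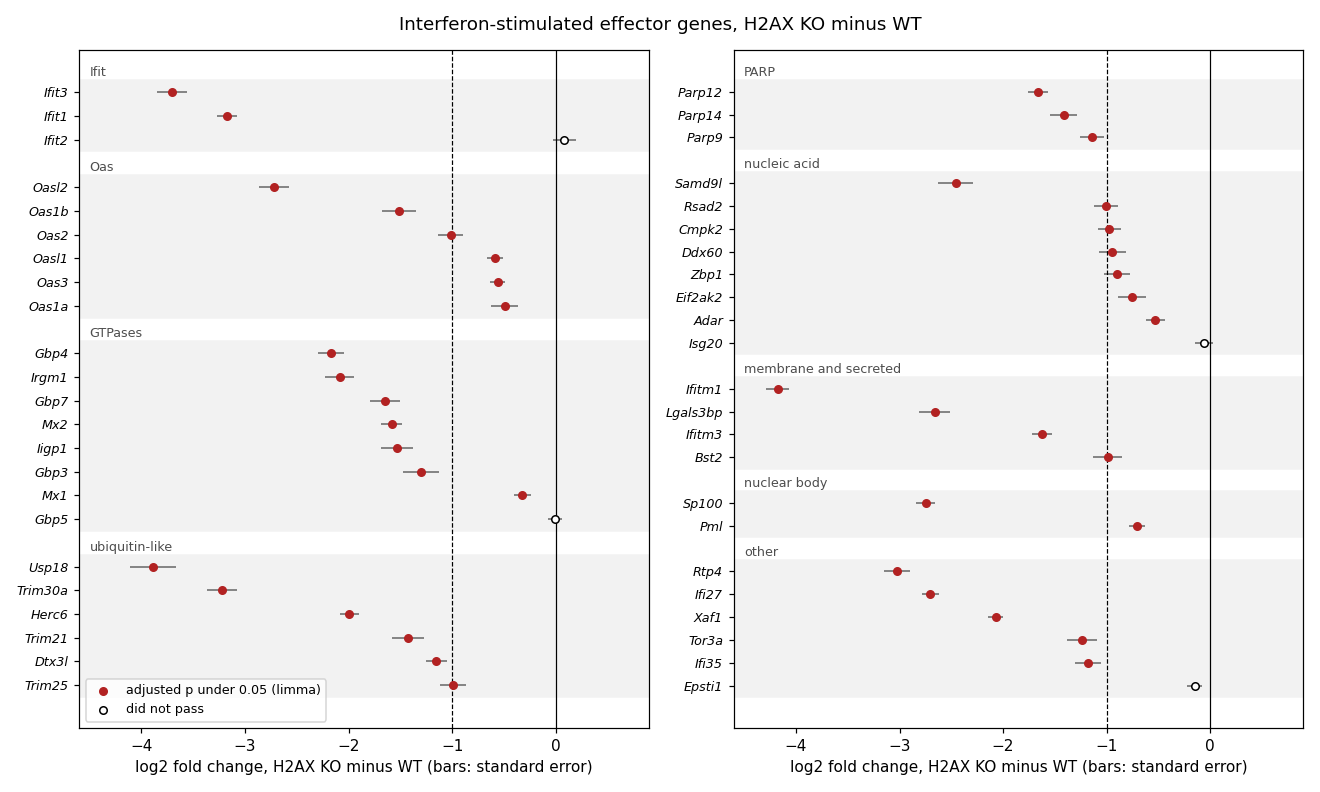
Log2 fold change (H2AX KO minus WT, horizontal axis) with its standard error from limma for each of the 46 genes, by class, where filled points passed an adjusted p of 0.05, open points did not, and the dashed line marks a fall of 2-fold. The 4 open points are Ifit2, Gbp5, Isg20 and Epsti1, and 30 filled points lie beyond the dashed line.

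The 46 genes also varied together among the WT arrays. Each value was set against the mean of its gene in its genotype. The median of these deviations over the 46 genes was -0.0033, -0.035 and 0.0051 on the H2AX KO arrays, and -0.24, 0.18 and 0.076 on WT replicates 1, 2 and 3, while over all genes no array was beyond -0.022 or 0.015. WT replicate 1 was the lowest WT array for 40 of the 46 genes (87.0%), against 47.2% of all genes. The median SD within a genotype was 0.110 in H2AX KO MEFs and 0.244 in WT MEFs over the 46 genes, and 0.0819 in H2AX KO MEFs and 0.0795 in WT MEFs over all genes. The levels differed as well, with 29 of the 46 genes below the median of all genes in H2AX KO MEFs and 10 in WT MEFs. The part of these lower levels in the smaller spread of the H2AX KO arrays was not tested. Set against each WT array alone, the H2AX KO mean was lower for 45 genes with WT replicate 1, 46 with replicate 2 and 44 with replicate 3. The share of all genes for which this held was not computed. The median differences over the 46 genes were -1.04, -1.61 and -1.34 against WT replicates 1, 2 and 3. The median difference was thus larger than the spread between WT arrays against each of the 3.

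**Figure D4:**
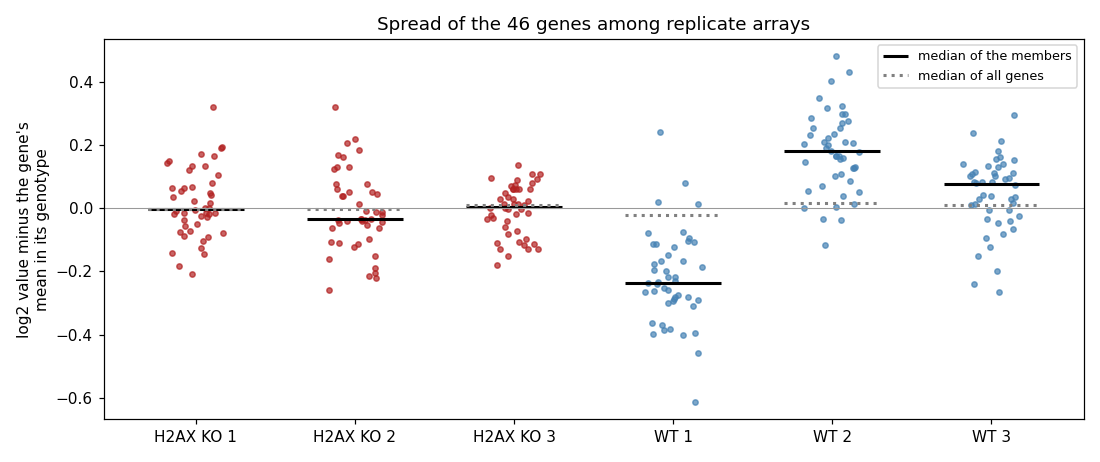
Deviation of each of the 46 genes on each array from the mean of that gene in its genotype, on the log2 scale (vertical axis), for the H2AX KO arrays (red) and the WT arrays (blue), with the median of the 46 genes (solid line) and of all genes (dotted line). The medians of the 46 genes lie near 0 on the H2AX KO arrays and at -0.24, 0.18 and 0.076 on WT replicates 1, 2 and 3.

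Promoter windows of 300 bases, 250 before and 50 after each annotated start site on RefSeq build GRCm38.p6, were available for 33 of the 46 genes, as 41 windows. The ISRE repeat, as spelled out above, was searched on both strands. It was present in 16 of the 41 windows (39.0%, with an exact 95% confidence interval of 24.2 to 55.5%) and in 1131 of 32851 windows of all genes (3.44%). A longer form, the same repeat followed by CT, each match of which is also a match to the repeat, was in 12 of the 41 windows (29.3%) and in 0.271% of all windows. The GAS letters TTCNNNGAA were in 10 of the 41 windows (24.4%) and in 8.30% of all windows. A match is a string of letters and not a measured binding site. The repeat occurred in windows of 15 genes, with a median log2 fold change of -1.30, and in no window of 18 genes, with a median of -1.17. Genes with a GAS match, 10 in all, had a median of -0.64, and the 23 without had a median of -1.66. Windows of the same gene share sequence, so that the exact interval, which counts each window as separate, may be too narrow. The genes were listed as interferon-stimulated, so that the shares with a match, like these medians, are given as a description.

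The match was not tied to a fall in every gene. Gbp5, which did not pass, has a match on chr3:142496754-142496933, plus strand, while Sp100, Oasl2, Lgals3bp and Samd9l, with log2 fold changes of -2.75, -2.72, -2.66 and -2.46, had no match in their windows. The stretches below show genes of different classes with a match, so that its place can be compared with the Ifit promoters above. They come from RefSeq on the same build, 5′ to 3′ on the strand of the gene, end at the base before the start site, and have the ISRE repeat or its reverse complement in capitals. For Trim30a the first annotated start site is shown. The coordinates are chr7:104465194-104465323, minus strand (Trim30a), chr11:48871421-48871550, minus strand (Irgm1), chr3:142530206-142530335, plus strand (Gbp7), chr12:26456453-26456582, minus strand (Rsad2) and chr5:120777660-120777789, minus strand (Oas3). In Irgm1 a pair of matches overlaps, which gives a longer run of capitals.
Gbp5: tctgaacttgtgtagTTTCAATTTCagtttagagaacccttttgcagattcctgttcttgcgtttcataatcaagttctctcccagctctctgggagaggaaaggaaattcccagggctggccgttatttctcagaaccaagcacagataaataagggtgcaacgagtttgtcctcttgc
Gbp7: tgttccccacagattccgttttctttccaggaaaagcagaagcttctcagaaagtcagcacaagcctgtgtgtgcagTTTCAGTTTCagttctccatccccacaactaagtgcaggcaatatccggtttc
Irgm1: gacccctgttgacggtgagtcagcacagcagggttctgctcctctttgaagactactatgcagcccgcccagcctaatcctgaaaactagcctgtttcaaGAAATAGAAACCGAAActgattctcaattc
Trim30a: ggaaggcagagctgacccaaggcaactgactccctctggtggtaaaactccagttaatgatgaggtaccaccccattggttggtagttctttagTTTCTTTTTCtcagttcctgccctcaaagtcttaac
Rsad2: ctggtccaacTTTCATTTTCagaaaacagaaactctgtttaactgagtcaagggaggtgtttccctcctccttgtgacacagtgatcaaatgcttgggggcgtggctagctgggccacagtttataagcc
Oas3: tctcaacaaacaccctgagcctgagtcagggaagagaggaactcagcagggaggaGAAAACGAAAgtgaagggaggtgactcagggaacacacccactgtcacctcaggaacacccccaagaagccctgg

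**Figure D5:**
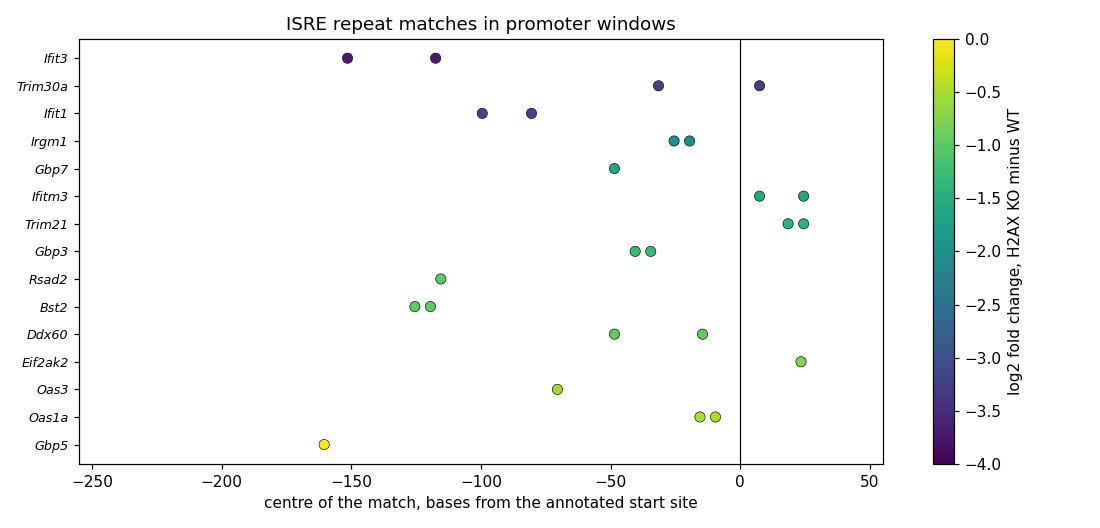
Centre of each match to the ISRE repeat in bases from the annotated start site (horizontal axis, negative before the start) for the 15 genes with a match, ordered and coloured by log2 fold change (H2AX KO minus WT). Matches of Ifit3 (-3.70), Ifit1 (-3.17), Rsad2 (-1.01), Bst2 (-0.99) and Gbp5 (-0.0052) lie farthest before the start, those of Ifitm3, Trim21 and Eif2ak2 lie after it, and Trim30a (-3.22) has a match on either side, in windows of different start sites.

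Of 24 listed genes of interferon production and signalling, 23 were measured, of which 12 were lower in H2AX KO MEFs, where 15.0% of all genes were lower, and the other 11 did not pass, with a median log2 fold change of -0.23. The largest falls were of Sting1, the adaptor of cytosolic DNA sensing, at -3.31 ± 0.076 (limma, adjusted p = 1.4e-09), and of Irf7, the factor that amplifies interferon transcription, at -2.23 ± 0.17 (limma, adjusted p = 6.2e-06). Values of the ligand, receptors and signalling factors, chosen after they were seen, are given for the path described above. Ifnb1, which codes for interferon beta, had a log2 fold change of 0.05 (limma, adjusted p = 0.636). Its log2 values were 4.45, 4.62 and 4.57 on the H2AX KO arrays, against 4.50, 4.47 and 4.51 on the WT arrays. These were low, where the median over all genes was 6.37 in H2AX KO MEFs and 6.36 in WT MEFs. Whether the Ifnb1 probe set read above background is not given in the sources used here. Its fold change therefore cannot show whether interferon beta RNA differed. The receptor genes Ifnar1 and Ifnar2 had log2 fold changes of 0.11 and 0.26 (limma, adjusted p = 0.389 and 0.087). Jak1 fell, with a log2 fold change of -0.65 (limma, adjusted p = 1.0e-04), and so did Stat2 at -1.29 (limma, adjusted p = 1.4e-05) and Irf9 at -1.33 (limma, adjusted p = 9.7e-05), while Tyk2 had a value of 0.02 (limma, adjusted p = 0.89).

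Of 55 further interferon-induced genes, 45 were measured, and 31 were lower and 2 higher in H2AX KO MEFs, where 15.0% of all genes were lower and 18.4% higher. Of the 45, 20 were lower by a fold over 2, against 3.18% of all genes, and the median log2 fold change was -0.78. The largest falls were of Ifi207 and Ifi203, members of the family of DNA-binding proteins with a HIN domain, at -4.22 ± 0.081 (limma, adjusted p = 6.3e-10) and -3.74 ± 0.13 (limma, adjusted p = 1.9e-08). The rises were of Samhd1, which hydrolyses deoxynucleotides, at 0.56 ± 0.082 (limma, adjusted p = 5.1e-04), and of Daxx, a histone chaperone of nuclear bodies, at 0.32 ± 0.077 (limma, adjusted p = 0.0099).

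Markers of fibroblasts and of other cell types that the cultures could hold were counted in the same comparison, where 15.0% of all genes were lower and 18.4% higher. Of 11 measured macrophage and leukocyte markers, 9 did not pass, Cd14 fell by 0.38 on the log2 scale (limma, adjusted p = 0.0042) and Cd68 rose by 0.29 (limma, adjusted p = 0.025). Their mean level was 5.26 to 5.34 on the H2AX KO arrays and 5.25 to 5.30 on the WT arrays. Endothelial markers had a mean level of 4.71 to 4.82 on the H2AX KO arrays and 4.90 to 4.96 on the WT arrays, with 2 of 5 lower (Cdh5, with a log2 fold change of -0.47, and Emcn, with -0.41). Among 5 epithelial markers, Krt19 rose by 0.25 (limma, adjusted p = 0.016) and the others did not pass. The 10 fibroblast markers were at a mean level of 11.2 on the H2AX KO arrays and 10.7 to 10.8 on the WT arrays. Of these, 5 were higher, led by Thy1 (4.03) and Pdgfrb (1.70), and 4 were lower, led by Dcn (-2.15) and S100a4 (-0.47). Over the 10 fibroblast markers the median log2 fold change was 0.18, and Thy1, which had the largest change, weighs on the mean level. The part of these fibroblast differences in the interferon-stimulated genes was not tested.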

How the data were processed

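RNA of H2AX KO and WT MEFs was measured on 6 arrays, 3 of each genotype, grouped by the genotype in the labels. The authors processed the scans with Affymetrix Expression Console and then Partek (version 6.6), where the normalization was done, and deposited log2 values for 35556 probe sets. The normalization method is not given in the sources used here, and normalized values do not show whether cells of a genotype held more RNA. The methods name version 2.0 of the Mouse Gene ST array, while the deposited identifiers belong to version 1.0, whose annotation was used. Of the 35556 probe sets, 12146 were not in the annotation and 23410 were. Of these 23410, 1621 with several symbols were left out and 21789 with 1 symbol were kept. Where a gene had several such probe sets, the one of highest mean was used.

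H2AX KO arrays were compared with WT arrays in limma (version 3.58.1, R version 4.3.3) over all 19938 genes without covariates, with Benjamini-Hochberg adjustment, at an adjusted p under 0.05, alone or with a fold over 2. The genes and lists were chosen with earlier results of these data known, so that no test was made over a list. The Y-linked list was added after the values were seen. Every measured gene of the 46 is named, with values by array for those past both thresholds and, added after the values were seen, for those that did not pass. In other lists, the 2 largest rises and falls that passed are named, and other genes named from them were chosen after their values were seen. Promoters came from RefSeq (GRCm38.p6) and were searched with Python version 3.11.15, and exact intervals were computed with scipy version 1.17.1. No arrays of a genotype shared more than 0.0872% of their values. The number of arrays limits the precision. Alternatives tried were a block for the replicate number, leaving out each array, the one-way ANOVA of the methods, another variance prior, quantile normalization, median centring, a filter on low values, the mean of probe sets, a fold over 1.5 and a longer ISRE.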

Additional observations from a re-analysis of the deposited data

How the results depend on the processing

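The counts of lower and higher genes and the median kept their direction under every alternative run. After removal of the 50% of genes of lowest mean, 28 of the 46 genes were tested. Of these, 26 were lower, where 24.1% of all genes kept were lower, and the median log2 fold change was -1.64. With each array left out in turn, 40 to 42 genes were lower and 0 were higher, where 11.9 to 14.7% of all genes were lower and 14.3 to 19.8% higher. By a fold over 2, 28 to 35 were lower, and the median was -1.49 to -1.22. In the one-way ANOVA 39 were lower, where 10.9% of all genes were lower. At a fold over 1.5 the count was 37. Shares of all genes by fold are given in this report only for a fold over 2 in the main run. Replicate numbers did not pair the arrays (correlations of deviations -0.29, -0.24 and 0.08), and with the replicate number as a block 42 genes were lower and 30 by a fold over 2. The sign turned for 3 genes that did not pass. Without single arrays, the log2 fold change of Gbp5 was -0.047 to 0.030, that of Ifit2 was -0.061 to 0.17 and that of Isg20 was -0.135 to 0.0054. Gbp5 was at 0.0051 with quantile normalization and 0.033 with median centring. The calls of Oas1a, Mx1 and Eif2ak2 were lost in 7 instances, given with these genes in the report. The count by a fold over 2 was 28 with quantile normalization and with median centring, where Oas2 and Rsad2 missed that fold. The cause was not tested.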
